A study of Mus musculus with 45 samples.

Results

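Major urinary proteins are small secreted lipocalins that mouse hepatocytes make in large amounts and that carry pheromones into the urine. The 7 family members described here, Mup1, Mup3, Mup7, Mup11, Mup14, Mup20 and Mup21, are 7 of the 24972 rows of the deposited table of gene expression, which holds 14 further rows named Mup. They were selected from a list by gene name, and the list was drawn up with earlier results of these data known. The measured values that chose them were the differences between diet labels, so those differences are given as a description and without a test.

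The libraries were made from whole liver of wild-type mice on a Lieber-DeCarli liquid diet, the usual diet for giving mice ethanol over weeks. Ethanol-labelled mice had 6 weeks of ethanol diet at peak, and then a further 3 days of control diet at early resolution or 2 weeks of control diet at late resolution. Control-labelled mice carry the same stage names and a control diet label. With a female or male label in each, this gave 12 groups and 45 libraries, of which 21 were ethanol-labelled and 24 control-labelled. Groups held 4 libraries each, apart from 3 libraries each in the early ethanol females, late ethanol females and late ethanol males. A library is called by stage, diet label, sex label and replicate number, such as early ethanol female 1. Neither age nor strain is in the labels. Since nothing in the labels ties the libraries of a group to different animals, every p-value speaks of the spread among libraries only, which may be technical. Levels are in TPM, a unit of transcript abundance that is scaled for gene length and to the same total in each library, so that the sequencing depth is unknown.

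Mup genes are known in mice for higher expression in males. Pulses of growth hormone in male mice act through the receptor Ghr, the kinase Jak2 and the transcription factor Stat5b in hepatocytes, and Mup genes are among their best known targets. The proteins bind small volatile molecules in a central pocket and release them slowly from urine marks. Mup20, also called darcin, is a male pheromone in its own right.

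Transcripts from the sex chromosomes were present or nearly absent by the diet label and not by the sex label. Xist, a non-coding RNA expressed from the inactive X chromosome, stood between 13.7 and 51.8 TPM in the 21 ethanol-labelled libraries and at no more than 0.349 TPM in 23 of the 24 control-labelled libraries. The Y-linked gene Eif2s3y stood at no more than 0.0386 TPM in the ethanol-labelled libraries and between 7.83 and 12.7 TPM in those 23 control-labelled libraries. The exception was late control female 1, with 39.5 TPM of Xist and Eif2s3y listed at 0. Diet label and these sex-chromosome transcripts therefore cannot be told apart in any comparison of diet labels below, and diet and sex are given here as the labels state them. Within a diet label, late control female 1 aside, Xist and Eif2s3y stayed in the ranges above under both sex labels. At peak the sex labels overlapped in both transcripts. Some later groups differed within those ranges without overlap, such as late ethanol-labelled Xist, at 44.6 to 51.8 TPM with a female and 33.15 to 34.1 TPM with a male label. A comparison of sex labels below is therefore not shown to compare the sexes. Males and females named in this report are libraries with that sex label. Whether labels of diet or sex were exchanged was not tested. Results on the members that involve late control female 1 are given with and without it.

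The family lies in a cluster on chromosome 4. GENCODE M21 (mm10) places 22 protein-coding Mup genes and 26 Mup pseudogenes between 59956804 and 62150863, a stretch of 2.19 Mb. All 7 members are protein-coding and on the minus strand. Mup7 lies at 60066469 to 60070475, Mup1 at 60498012 to 60501960, Mup11 at 60658466 to 60662411 and Mup14 at 61300023 to 61304000. Mup20 at 62050234 to 62054158, Mup3 at 62083476 to 62087342 and Mup21 at 62147932 to 62150863 sit together at the far end.

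Mup1, Mup7, Mup11 and Mup14 belong to the central genes of the cluster and are near-identical copies. Their annotated coding sequences were between 98.3% and 99.1% identical to each other. Mup3 and Mup21 were 95.4% identical to each other, and Mup3 was 83.1% to 84.2% identical to the 4 central members. Mup20 was 90.4% to 91.1% identical to those 4. The stretch of 75 coding bases below, which varies at 27 positions among the members, is shown because it shows how much of a read can tell them apart. It is from GENCODE M21 and written 5′ to 3′ on the coding strand, and capitals mark bases that differ from Mup7.
Mup7: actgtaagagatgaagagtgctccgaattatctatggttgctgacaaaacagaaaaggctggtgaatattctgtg
Mup1: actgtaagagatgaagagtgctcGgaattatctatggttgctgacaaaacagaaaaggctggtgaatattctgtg
Mup11: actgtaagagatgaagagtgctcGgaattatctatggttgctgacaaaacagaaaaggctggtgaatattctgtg
Mup14: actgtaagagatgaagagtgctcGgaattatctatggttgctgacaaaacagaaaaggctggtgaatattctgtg
Mup20: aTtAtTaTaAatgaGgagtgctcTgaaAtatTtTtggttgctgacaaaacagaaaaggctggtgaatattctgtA
Mup21: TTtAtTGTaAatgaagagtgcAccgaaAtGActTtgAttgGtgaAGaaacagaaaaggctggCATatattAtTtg
Mup3: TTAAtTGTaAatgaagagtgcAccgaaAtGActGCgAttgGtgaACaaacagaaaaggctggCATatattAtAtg
Mup1, Mup11 and Mup14 are the same over this stretch and differ from Mup7 at 1 base, against 11 bases in Mup20, 21 in Mup21 and 23 in Mup3. A read from here could not be given to Mup1, Mup11 or Mup14 alone.

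Over whole transcripts, 94.6% of the windows of 75 bases in Mup3 occurred in no transcript of any other annotated gene, and 89.7% of those in Mup21. The share was 56.4% in Mup20 and 42.2% in Mup1. It was 18.9% in Mup7, 17.1% in Mup11 and 14.1% in Mup14. Mup2, Mup15 and Mup19 had no window of their own. The treatment of reads that match several copies is not given in the sources used here, and so the split of TPM among Mup1, Mup7, Mup11, Mup14 and the other central genes is uncertain, and Mup3 and Mup21 are the members whose values depend least on it.

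**Figure D1:**
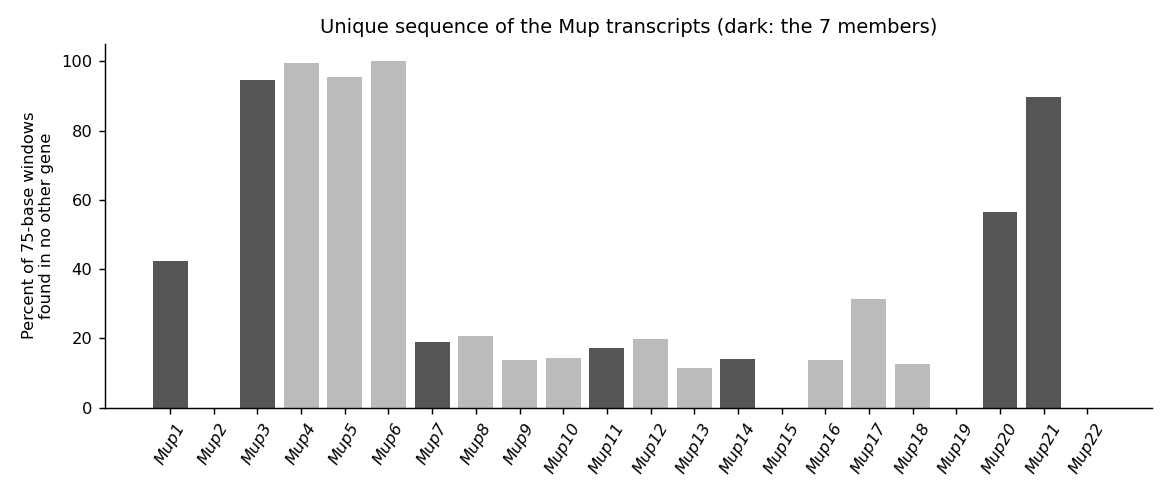
Percent of the 75-base windows of each annotated Mup gene's transcripts that occur in no other annotated gene (y axis) for 22 Mup genes (x axis), with the 7 members in dark bars. Mup3 at 94.6% and Mup21 at 89.7% stand far above Mup7, Mup11 and Mup14, which lie between 14.1% and 18.9%.

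In control-labelled livers the 7 members were among the most abundant transcripts of the liver. Over the 23 control-labelled libraries without late control female 1 they held between 3.09% and 10.7% of all TPM, with a median of 7.23%. In the 21 ethanol-labelled libraries they held between 0.152% and 0.419%, with a median of 0.207%. No ethanol-labelled library reached the lowest of those 23 control-labelled libraries. Late control female 1 held 0.143%, below every ethanol-labelled library. With the 14 other Mup rows added, the share was 0.177% to 1.02% in ethanol-labelled libraries and 3.97% to 14.5% in the 23 control-labelled ones.

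**Figure D2:**
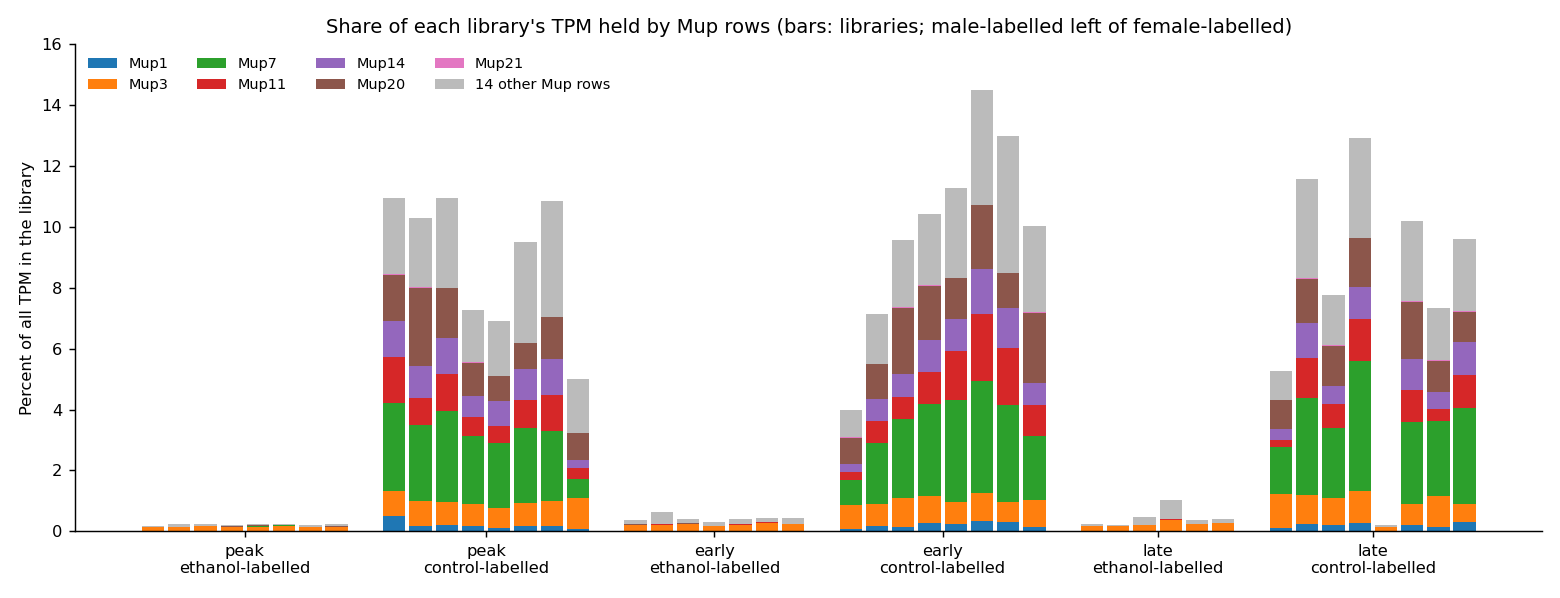
Percent of all TPM in a library (y axis, linear from 0) held by each of the 7 members and by the 14 other Mup rows together (stacked colours), 1 bar per library, by stage and diet label (x axis). Control-labelled bars reach up to 14.5%, the highest ethanol-labelled bar reaches 1.02%, and the low bar among the late control-labelled libraries is late control female 1.

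By mean TPM, Mup7 ranked 2 among all genes of the 23 control-labelled libraries. Mup20 ranked 9, Mup11 ranked 18, Mup14 ranked 19, Mup3 ranked 21, Mup1 ranked 68 and Mup21 ranked 584. In the ethanol-labelled libraries Mup3 ranked 68, Mup20 ranked 1018, Mup7 ranked 2092, Mup11 ranked 2183, Mup1 ranked 4381, Mup14 ranked 4600 and Mup21 ranked 6251. The order of the members thus differed between the diet labels, with Mup3 first in ethanol-labelled livers and Mup7 first in control-labelled livers.

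Mup3 exceeded every other member in 21 of 21 ethanol-labelled libraries. It averaged 2022 ± 584 TPM there (SD, n = 21), against 95.3 ± 61.6 TPM for Mup20, which came next. Below Mup20 the order was Mup7, Mup11, Mup1, Mup14 and Mup21, with averages of 33.5, 31.5, 10.5, 9.53 and 5.02 TPM. Mup20 stood above Mup7 in 20 of 21 libraries and Mup11 above Mup1 in 17 of 21. The other neighbours did not differ beyond their spread, with Mup7 above Mup11 in 11 of 21 libraries, Mup1 above Mup14 in 14 and Mup14 above Mup21 in 9.

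Mup7 exceeded every other member in 19 of 23 control-labelled libraries and averaged 25416 ± 8281 TPM (SD, n = 23). Mup20 followed at 14235 ± 5047 TPM, above Mup11 in 17 of 23 libraries, and then Mup11 at 10014 ± 5067, Mup14 at 8893 ± 3327 and Mup3 at 8342 ± 1383 TPM. Mup11, Mup14 and Mup3 did not differ beyond their spread, since each stood above the next in 13 of 23 libraries. Mup1 at 2113 ± 960 TPM and Mup21 at 182 ± 72.2 TPM came last, in that order in 23 of 23 libraries.

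Mup3 made up a median of 94.2% of the members' summed TPM in ethanol-labelled livers, within a range of 75.04% to 96.3%. In the 23 control-labelled livers its median was 11.4%, within a range of 7.53% to 31.1%. Mup7 made up a median of 0.395% in ethanol-labelled and 37.4% in control-labelled livers. The ranges of both genes did not overlap between the labels.

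**Figure D3:**
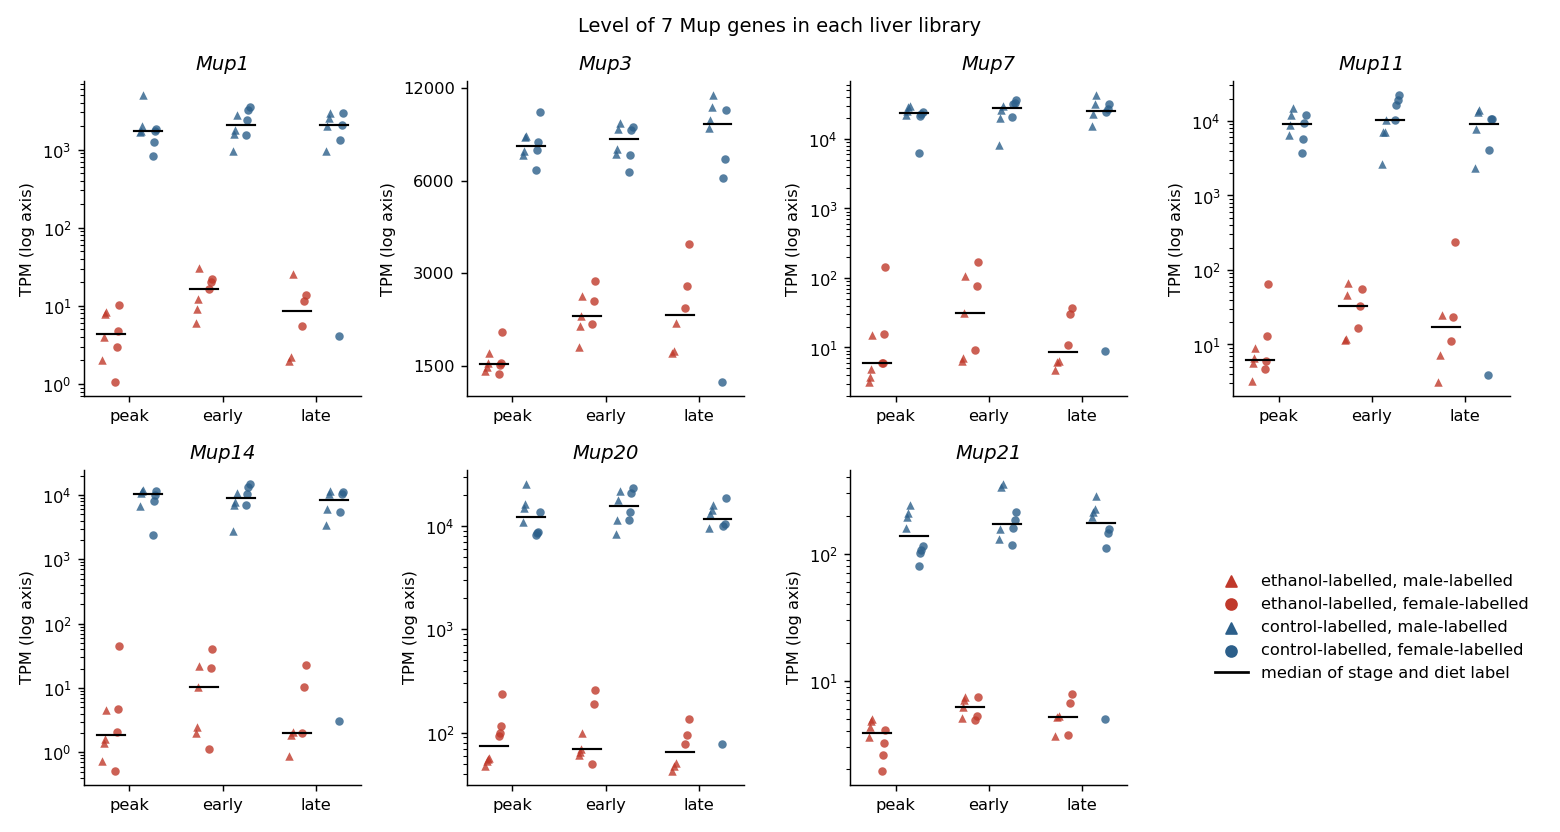
TPM of each member in every library (y axis, log scale, a separate scale per gene) by stage (x axis), with ethanol-labelled libraries in red left of control-labelled libraries in blue, male-labelled as triangles, female-labelled as circles and black lines for medians. The single blue point among or below the red points at late resolution is late control female 1, and Mup3 shows the smallest gap between the labels.

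Mup7 shows the size of the difference between diet labels. At peak it had between 3.20 and 143 TPM in the 8 ethanol-labelled libraries, with a median of 6.02 TPM, and between 6394 and 30086 TPM in the 8 control-labelled libraries, with a median of 23932 TPM. At early resolution the 7 ethanol-labelled libraries lay between 6.42 and 170 TPM with a median of 31.1, and the 8 control-labelled libraries between 8268 and 36802 TPM with a median of 28212. At late resolution the 6 ethanol-labelled libraries lay between 4.73 and 37.5 TPM with a median of 8.74. The 7 control-labelled libraries other than late control female 1 lay between 15405 and 42470 TPM, with a median of 26679, and late control female 1 had 8.96 TPM. The libraries of the 2 diet labels did not overlap at any stage once late control female 1 was set aside.

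On the scale of log2(TPM + 0.5), on which low values understate a difference, Mup7 was lower by 10.99 ± 0.99 (SE) at peak. The ethanol-labelled minus control-labelled difference of Mup7 was -9.54 ± 1.03 at early resolution and -9.67 ± 1.07 at late resolution. Without late control female 1 the late value was -11.10 ± 0.62. Mup14 had similar values, with -11.27 ± 1.00 at peak, -9.92 ± 1.04 at early and -9.47 ± 1.08 at late resolution, or -10.87 ± 0.68 at late resolution without that library. Mup11 stood at -9.85 ± 0.93, -8.43 ± 0.97 and -7.31 ± 1.01 at the 3 stages, and at -8.66 ± 0.60 late without it.

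Mup1, which has been studied in mice as a circulating signal in glucose metabolism, had between 1.06 and 10.4 TPM in peak ethanol-labelled libraries and between 830 and 4953 TPM in peak control-labelled ones. Its difference on the log2 scale was -8.54 ± 0.75 at peak, -7.02 ± 0.78 at early and -6.93 ± 0.81 at late resolution, or -8.02 ± 0.46 late without late control female 1. Mup20 had between 47.9 and 237 TPM in peak ethanol-labelled libraries, against 8191 to 25444 TPM in peak control-labelled ones. Its difference was -7.24 ± 0.58 at peak, -7.26 ± 0.60 at early and -6.60 ± 0.63 at late resolution, or -7.52 ± 0.28 late without that library. Darcin was thus far lower in ethanol-labelled livers at each of the 3 stages.

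Mup3 remained abundant in ethanol-labelled livers. At peak it had between 1411 and 1935 TPM with a median of 1523 in the 8 ethanol-labelled libraries, and between 6508 and 10055 TPM with a median of 7787 in the 8 control-labelled libraries. That median was 5.12-fold lower in the ethanol-labelled livers, against a 3973-fold lower median of Mup7. At early resolution the 7 ethanol-labelled libraries had 1732 to 2828 TPM and the 8 control-labelled libraries 6393 to 9261 TPM. At late resolution they had 1656 to 3733 TPM in 6 ethanol-labelled libraries, and 6134 to 11393 TPM in 7 control-labelled libraries, with 1330 TPM in late control female 1. The log2 difference of Mup3 was -2.34 ± 0.21 at peak, -1.83 ± 0.22 at early and -1.63 ± 0.23 at late resolution, or -1.95 ± 0.13 late without that library.

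Mup21 was the least abundant member and lay between. It had 1.96 to 5.02 TPM in peak ethanol-labelled and 80.3 to 240 TPM in peak control-labelled libraries, and its difference was -5.11 ± 0.37 at peak, -4.87 ± 0.39 at early and -4.37 ± 0.40 at late resolution, or -4.95 ± 0.20 late without late control female 1. All 7 members had every ethanol-labelled library below every control-labelled library at peak, where 1.15% of the 11244 genes tested did, and at early resolution, where 0.88% did. At late resolution 0 of 7 did with all libraries, beside 0.347% of the genes, and 7 of 7 without late control female 1, beside 1.16%. The members were chosen on this contrast, so nothing is read from those counts. The median difference of the 7 members was -8.54 at peak, -7.26 at early and -6.93 at late resolution, beside medians over all genes of 0.05, 0.13 and 0.05.

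The other 14 Mup rows are given as a description too, since they share sequence or reads with the members. Mup16, Mup5, Mup6 and Mup8 had a mean over 0.5 TPM, the filter for testing, in control-labelled livers only. Mup4, a gene known for expression in nasal and glandular tissue, was not tested, with no more than 0.146 TPM in ethanol-labelled and 1.03 TPM in control-labelled libraries. Mup19 was the most abundant of these rows, with 205 to 4692 TPM in ethanol-labelled and 7449 to 22253 TPM in the 23 control-labelled libraries. Its difference was -5.09 ± 0.45 at peak, -3.58 ± 0.47 at early and -3.10 ± 0.48 at late resolution, or -3.67 ± 0.34 late without late control female 1. Mup19 has no window of its own, so its level is split from reads shared with other copies. Mup5 and Mup6, like Mup4 outside the central genes, were low in every library, with no more than 0.247 and 0.929 TPM in ethanol-labelled, against no more than 4.45 and 6.45 TPM in the 23 control-labelled libraries.

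Several of these rows held values that jumped between libraries of a group. Mup17 was listed at 0 in 8 of the 23 control-labelled libraries and reached 4943 TPM in another, and was at 0 in 19 of 21 ethanol-labelled libraries. Among the peak control-labelled females Mup17 had 0, 3092, 3544 and 6.86 TPM. Mup16 was listed at 0 in all 21 ethanol-labelled and in 4 of the 23 control-labelled libraries. Mup15 had 4.07 TPM in early control male 1, against between 1933 and 2953 TPM in the other 3 early control males. Only 31.3% of the 75-base windows of Mup17, 13.7% of those of Mup16 and none of those of Mup15 are unique to the gene. Mup2, Mup8, Mup9, Mup10, Mup12, Mup13 and Mup18 had highest values between 0.504 and 291 TPM in ethanol-labelled libraries and between 13.2 and 4840 TPM in control-labelled ones.

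Whether members differed between the sex labels was tested within each diet label with limma, adjusted over all 11244 genes. None of the 7 members passed among the 21 ethanol-labelled or among the 24 control-labelled libraries, where 13.6% and 1.33% of all genes passed. At an unadjusted p under 0.05 there was 1 member in ethanol-labelled and 2 in control-labelled livers. Standard errors of the members were smaller without late control female 1, and then 3 members in ethanol-labelled livers (beside 14.8% of genes) and 1 in control-labelled livers (beside 1.02%) passed.

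Mup20 had the smallest adjusted p among ethanol-labelled livers. It stood at 43.1 to 98.6 TPM with a median of 55.3 in the 11 male-labelled libraries and 49.3 to 257 TPM with a median of 108 in the 10 female-labelled libraries. At peak the 4 male-labelled libraries had 55.3, 53.3, 47.9 and 57.6 TPM. Each of these was below all 4 female-labelled libraries, at 237, 99.4, 92.4 and 117 TPM. At early resolution the sex labels overlapped, since early ethanol female 3 had 49.3 TPM. At late resolution the male-labelled libraries had 51.2, 47.2 and 43.1 TPM and the female-labelled ones 137, 78.6 and 95.3 TPM, without overlap. The male-labelled minus female-labelled difference of Mup20 was -1.07 ± 0.51 over all libraries (adjusted p = 0.145) and -1.07 ± 0.22 without late control female 1 (adjusted p = 0.00237).

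Mup7 in ethanol-labelled livers had 3.20 to 108 TPM with a median of 6.42 in male-labelled libraries, against 5.99 to 170 TPM with a median of 23.1 in female-labelled ones. Its difference was -1.60 ± 0.87 (adjusted p = 0.205), and -1.60 ± 0.49 without late control female 1 (adjusted p = 0.0273). Mup3 had 1444 to 2528 TPM in male-labelled and 1411 to 3733 TPM in female-labelled libraries, with a difference of -0.31 ± 0.19 (adjusted p = 0.249), and -0.31 ± 0.10 without that library (adjusted p = 0.0305). The libraries of the sex labels overlapped for both genes. The median of all genes stood at -0.11 in this comparison, and median-of-ratios scaling, which centres it near 0, gave -0.18 ± 0.21 for Mup3, -1.48 ± 0.90 for Mup7 and -0.94 ± 0.54 for Mup20 with all libraries.

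Mup21 had the smallest adjusted p among control-labelled livers. At peak the male-labelled libraries had 240, 208, 159 and 197 TPM. Each of these was above all female-labelled libraries, at 80.3, 106.3, 114.3 and 101.4 TPM. At early resolution the male-labelled libraries had 131, 157, 354 and 334 TPM and the female-labelled ones 118, 214, 160 and 184 TPM, which overlapped. At late resolution the male-labelled libraries had 214, 226, 193 and 287 TPM and the female-labelled ones 4.96, 145, 157 and 112 TPM. The lowest of these values is late control female 1. The male-labelled minus female-labelled difference of Mup21 was 1.11 ± 0.31 (adjusted p = 0.0569), and 0.72 ± 0.15 without late control female 1 (adjusted p = 0.0091). No other member passed in control-labelled livers, and without that library the differences of the other 6 lay between -0.30 and 0.19.

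The sex-label difference was next compared between diet labels in an interaction term. With all libraries 0 of 7 members passed in limma, beside 0.133% of all genes, although 4 of 7 had an unadjusted p under 0.05. The term was negative for each member and lay between -2.54 ± 1.19 for Mup7 and -0.68 ± 0.25 for Mup3. The smallest adjusted p was 0.43, for Mup20 at -1.87 ± 0.70. Without late control female 1 the term of Mup20 was -1.26 ± 0.31 (adjusted p = 0.0867) and 0 of 7 passed. The difference between sex labels is therefore not shown to differ between the diet labels.

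**Figure D4:**
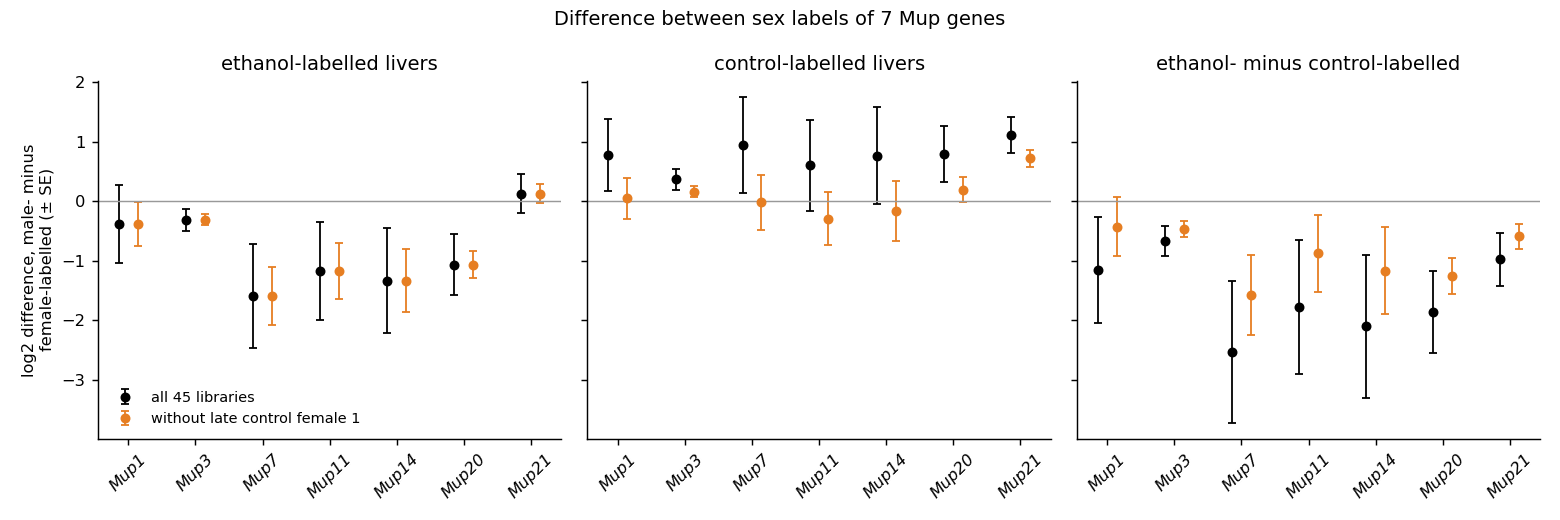
Male-labelled minus female-labelled difference of each member on the log2(TPM + 0.5) scale with its SE (y axis) in ethanol-labelled livers, in control-labelled livers, and the first minus the second (panels), with all 45 libraries in black and without late control female 1 in orange. Leaving that library out shortened the error bars throughout and moved the control-labelled differences other than that of Mup21 to between -0.30 and 0.19.

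At both resolution stages the members stood far lower in ethanol-labelled than in control-labelled livers, and several had higher medians at early resolution than at peak. Mup1 had a median of 4.35 TPM at peak, 16.4 TPM at early resolution and 8.60 TPM at late resolution in ethanol-labelled livers. Mup11 had medians of 6.25, 32.8 and 17.1 TPM and Mup14 medians of 1.84, 10.5 and 2.02 TPM at the 3 stages. Mup3 had 1564 ± 166 TPM at peak (SD, n = 8), 2254 ± 368 TPM at early resolution (SD, n = 7) and 2362 ± 784 TPM at late resolution (SD, n = 6). Control-labelled medians of Mup1 were 1723, 2077 and 2058 TPM at the 3 stages, the last without late control female 1.

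In limma on all libraries, 0 of 7 members passed for early minus peak in ethanol-labelled livers, beside 26.5% of all genes, and 2 had an unadjusted p under 0.05. Without late control female 1, which is not in either group but enters the shared spread, 5 of 7 passed, beside 27.8% of all genes, all of them higher at early resolution. Mup1 differed by 1.74 ± 0.78 with all libraries (adjusted p = 0.09) and by 1.74 ± 0.43 without that one (adjusted p = 0.00373). Mup3 differed by 0.53 ± 0.22 (adjusted p = 0.0675), and by 0.53 ± 0.12 without it (adjusted p = 0.00144). Mup21 differed by 0.68 ± 0.39 (adjusted p = 0.187), and by 0.68 ± 0.18 without it (adjusted p = 0.00647). Mup7 and Mup11 had adjusted p of 0.0322 and 0.0245 without it.

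Of the 5 members that passed, Mup1, Mup7 and Mup11 are near-identical copies that may share reads, so their calls are not independent. A share of 5 of 7 has to be read against the 27.8% of all genes that passed too, and against an all-gene median of 0.16 in this comparison. Rescaled values were not computed without late control female 1. With all libraries the values below therefore do not speak of the fit in which the 5 passed. Median-of-ratios scaling brought the all-gene median to 0.00 and gave 1.57 ± 0.81 for Mup1, 0.35 ± 0.25 for Mup3, 1.48 ± 1.06 for Mup7 and 0.51 ± 0.42 for Mup21 with all libraries. Mup20 differed by 0.26 ± 0.60, and did not pass with or without late control female 1 (adjusted p = 0.777 and 0.469). Single libraries stood out within the stages. At early resolution Mup7 had 170, 77.7 and 9.21 TPM in the 3 female-labelled libraries and 108, 31.1, 7.03 and 6.42 TPM in the 4 male-labelled ones. At peak it had 143, 15.7, 5.99 and 6.06 TPM in the 4 female-labelled libraries and 4.83, 3.75, 3.20 and 14.96 TPM in the 4 male-labelled ones.

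For late minus peak in ethanol-labelled livers 0 of 7 members passed, beside 22% of all genes, with 1 at an unadjusted p under 0.05. Mup3 differed by 0.54 ± 0.23 (adjusted p = 0.0832) and, without late control female 1, by 0.54 ± 0.12 (adjusted p = 0.00187), when 1 of 7 passed beside 23% of all genes. The other 6 members differed by between -0.25 and 1.06 and did not pass in either case. Late ethanol female 1 held the highest value of Mup3 (3733 TPM), of Mup11 (239 TPM), of Mup21 (7.92 TPM) and of Mup19 (4692 TPM) among all ethanol-labelled libraries.

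In control-labelled livers the members differed between stages by less than their spread. For early minus peak 0 of 7 passed, beside 0.729% of all genes, with 0 at an unadjusted p under 0.05 and differences between 0.01 and 0.44. For late minus peak 0 of 7 passed, beside 0.676% of all genes, also with 0 at an unadjusted p under 0.05. Those late differences lay between -1.49 and -0.17 with all libraries and between -0.13 and 0.36 without late control female 1, so their direction rested on that library for 5 of the 7 members.

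Whether the stage change differed between diet labels was tested as an interaction. For early minus peak 0 of 7 members passed, beside 0% of all genes (0 of 11244, with 1879 at an unadjusted p under 0.05), and 0 members had an unadjusted p under 0.05. For late minus peak 0 of 7 passed, beside 3.98% of all genes, with 1 member at an unadjusted p under 0.05. That member was Mup3, with a term of 0.71 ± 0.31 (adjusted p = 0.155), and 0.40 ± 0.17 without late control female 1 (adjusted p = 0.127). These interactions share their libraries with the stage comparisons above, so their values are not a separate line of evidence.

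**Figure D5:**
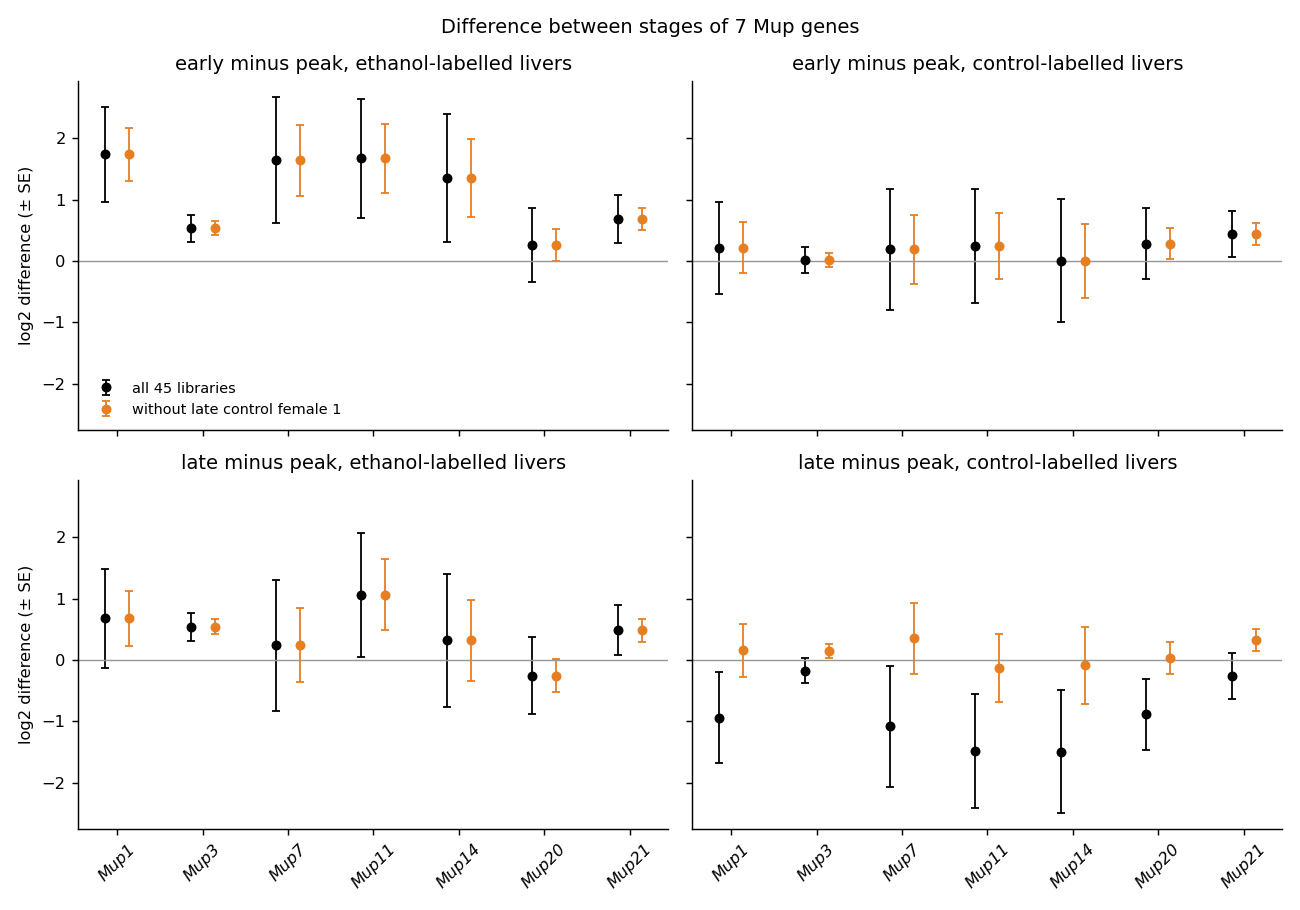
Difference from peak of each member on the log2(TPM + 0.5) scale with its SE (y axis) at early resolution (top) and late resolution (bottom), in ethanol-labelled (left) and control-labelled livers (right), with all 45 libraries in black and without late control female 1 in orange. Early values in ethanol-labelled livers lie between 0.26 and 1.74, and the late control-labelled values lie between -0.13 and 0.36 when that library is left out.

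How members varied with each other among libraries of the same group was examined by correlation. It was taken over deviations from the group mean on the log2 scale, for 21 pairs of members in 21 ethanol-labelled libraries and 21 pairs in 23 control-labelled libraries, with permutation within groups (100000 resamples, two-sided) and adjustment over the 42 pairs. In control-labelled livers 8 pairs passed for Pearson's r, and in ethanol-labelled livers 7 did. The share of other gene pairs that would pass was not computed, so the counts describe the members only. Mup7 and Mup14 had r = 0.95 and rho = 0.96 in ethanol-labelled livers (permutation p = 1e-05 for r, the smallest the resampling can give, and 5e-05 for rho, adjusted 0.0001 and 0.00042), and r = 0.94 without the 2 libraries farthest from the median of Mup7. In control-labelled livers the pair had r = 0.94 and rho = 0.91 (permutation p = 2e-05 for both, adjusted 0.00014 and 0.00021), and r = 0.90 without 2 libraries. These 2 genes share most of their sequence, and the part of shared reads in this was not tested.

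Mup3 and Mup21, the members with most sequence of their own, had r = 0.58 and rho = 0.66 in control-labelled livers (permutation p = 0.0039 and 0.0035, adjusted 0.013 and 0.012), and r = 0.65 without 2 libraries. In ethanol-labelled livers the pair had r = 0.29 and rho = 0.15 (permutation p = 0.387 and 0.624, adjusted 0.416 and 0.672). Mup3 did not pass with any of the 4 central members in either diet label, with r between -0.36 and 0.39. Mup20 passed with Mup7, Mup11 and Mup14 in ethanol-labelled livers, with r of 0.79, 0.56 and 0.83 and adjusted permutation p of 0.013, 0.025 and 0.0092. Without 2 libraries these r were 0.73, 0.41 and 0.73. It did not pass with them in control-labelled livers, where r was 0.40, 0.48 and 0.47 (adjusted permutation p = 0.18, 0.081 and 0.085). The difference between the diet labels in these correlations was not tested.

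Over the 12 group means, the genes outside the family whose log2 level was most like the members' summed level were Cyp4a12a, Cyp4a12b, Hsd3b5, Cyp7b1 and Susd4, with r between 0.991 and 0.995 among 6013 genes compared. The group means fall into the diet labels, so r mostly restates that split and is given as a description. Cyp4a12a and Cyp4a12b, fatty acid hydroxylases, and Hsd3b5, a steroid dehydrogenase, are known for male-biased expression in mouse liver. Cyp4a12a had a median of 0.113 TPM in ethanol-labelled and 287 TPM in control-labelled livers. Over deviations from the group means in the 23 control-labelled libraries the closest included Selenbp2 (r = 0.79), C6 (r = 0.77), C9 (r = 0.76) and Cyp7b1 (r = 0.73), of which C6 and C9 are components of the complement attack complex.

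The promoters of the members were read where the RefSeq table (GRCm38.p6) held them, which was for 5 of 7, Mup3, Mup7, Mup11, Mup14 and Mup21. Each is 300 bases long and runs across the annotated start. Both strands were searched for TTCNNNGAA, the core of a STAT5 site. They were also searched for ATCAAT, a core that Onecut factors such as Hnf6 can bind. The last motif searched was TATATAA, a form of the TATA box. Those of Mup11 (chr4:60662346-60662645), Mup3 (chr4:62087268-62087567) and Mup21 (chr4:62150792-62151091), all from the minus strand, are shown because they stand for a central member and for the 2 divergent members beside each other. Capitals mark matches to any of the 3 motifs, and no matched bases overlap.
Mup11: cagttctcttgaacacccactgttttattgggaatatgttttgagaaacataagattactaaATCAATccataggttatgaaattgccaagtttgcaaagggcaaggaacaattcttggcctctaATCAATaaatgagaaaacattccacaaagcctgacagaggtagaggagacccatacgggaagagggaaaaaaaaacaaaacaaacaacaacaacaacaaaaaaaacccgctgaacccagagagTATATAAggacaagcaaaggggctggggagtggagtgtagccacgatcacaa
Mup3: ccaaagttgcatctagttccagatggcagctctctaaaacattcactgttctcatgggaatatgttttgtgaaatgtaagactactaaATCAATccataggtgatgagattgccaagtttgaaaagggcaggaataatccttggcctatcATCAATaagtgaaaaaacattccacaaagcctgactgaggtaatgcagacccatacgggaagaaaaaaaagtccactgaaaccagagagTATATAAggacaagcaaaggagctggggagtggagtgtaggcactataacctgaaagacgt
Mup21: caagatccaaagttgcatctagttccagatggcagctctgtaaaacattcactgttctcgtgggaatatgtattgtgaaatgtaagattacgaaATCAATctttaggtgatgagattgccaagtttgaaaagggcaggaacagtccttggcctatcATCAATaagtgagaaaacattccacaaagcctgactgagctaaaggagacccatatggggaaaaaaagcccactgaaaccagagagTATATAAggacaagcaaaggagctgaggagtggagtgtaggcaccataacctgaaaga
ATCAAT occurred in 5 of 5 member promoters, at 2 places in each, and in 7.5% of 32851 mouse promoters of this length. TATATAA occurred in 4 of 5, against 3.2% of all promoters, and was not found in the window of Mup7. That window ends within a stretch that in Mup11 comes before TATATAA, so the matching position of Mup7 was not searched. TTCNNNGAA occurred in 0 of 5, against 8.3% of all promoters. These are matches of letters in a short window, and the copies share ancestry, so they are a description and not sites.

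The list of 30 growth hormone signalling genes and regulators of Mup genes had 28 members tested. In ethanol-labelled minus control-labelled livers 7 were higher and 1 lower at peak, 6 higher and 0 lower at early resolution, and 4 higher and 3 lower at late resolution. The shares of all genes called in either direction were 27.1%, 16.7% and 12.8%, so the list's counts at peak and early resolution are near them. Its median difference was 0.15 at peak, 0.24 at early and 0.14 at late resolution, beside 0.05, 0.13 and 0.05 over all genes. Under median-of-ratios scaling 7 were higher and 4 lower at peak, 4 and 0 at early, and 4 and 4 at late resolution. The shares of all genes called under that scaling are not given here, so its counts are a description only. Without late control female 1 the late count was 7 higher and 3 lower, when 18.6% of all genes were called in either direction. Cux2, a transcription factor known as female-biased in mouse liver, had 1.13 to 11.6 TPM in ethanol-labelled and 0.0146 to 0.223 TPM in the 23 control-labelled livers, and 1.39 TPM in late control female 1. Its difference was 2.68 ± 0.28 at peak, 3.30 ± 0.29 at early and 3.09 ± 0.30 at late resolution, or 3.31 ± 0.28 late without that library. Cux2 reached the filter only through the ethanol-labelled livers, so its calls, which the counts include, were fixed by the filter.

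The list of growth hormone signalling genes and regulators was drawn up with earlier results of these data known. Its adjusted p between diet labels, from limma, are therefore given as a description and not as separate support. The oestrogen receptor Esr1 was higher by 1.34 ± 0.16 at peak (adjusted p = 5.1e-08) and 1.00 ± 0.17 at early resolution (adjusted p = 3.97e-05). Tox, a nuclear protein, was higher by 0.78 ± 0.18 at peak (adjusted p = 0.00132), 1.198 ± 0.19 at early (adjusted p = 1.56e-05) and 0.96 ± 0.20 at late resolution (adjusted p = 0.000772). The late difference of Tox was 1.12 ± 0.18 without late control female 1 (adjusted p = 1.28e-05). Bcl6, a repressor known as male-biased in mouse liver, was lower at late resolution, with a difference of -1.64 ± 0.42 (adjusted p = 0.00705), and -1.73 ± 0.43 without that library (adjusted p = 0.00426). Stat5b did not pass at any stage, with differences between -0.05 and 0.19, and neither did the growth hormone receptor Ghr, with differences between -0.23 and -0.04, nor Zhx2, a regulator of Mup genes in mice, with differences between -0.08 and 0.19. The called genes of this list kept their direction under median-of-ratios scaling, quantile normalization and a total without Mup rows, but some calls were lost. Onecut1 at peak was lost under quantile normalization and a total without Mup rows, Stat5a and Cebpb at early resolution under median-of-ratios scaling, and Trim24 at late resolution under a total without Mup rows. With the replicate block Cish, Cebpb and Trim24 were lost at late resolution.

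Between the sex labels 0 of these 28 genes passed in control-labelled livers, beside 1.33% of all genes. In ethanol-labelled livers 3 were higher and 4 lower with a male label, beside 13.6% of all genes called. Among them were Esr1 at 0.80 ± 0.14 (adjusted p = 0.000779) and Cux2 at -1.11 ± 0.25 (adjusted p = 0.00426). In control-labelled livers 0 passed for early minus peak, beside 0.729% of all genes. For late minus peak 1 passed, Esr1 (0.64 ± 0.16, adjusted p = 0.0491), beside 0.676% of all genes. That call was lost under each of those scalings and without late control female 1 (0.57 ± 0.16, adjusted p = 0.102). For early minus peak in ethanol-labelled livers 4 were higher and 2 lower, and for late minus peak 4 higher and 4 lower, beside 26.5% and 22% of all genes called. At late minus peak Hnf4a, a hepatocyte transcription factor, differed by -0.70 ± 0.14 (adjusted p = 0.000631). For the sex label by diet label 1 term passed, in Cebpb (0.67 ± 0.13, adjusted p = 0.04, and 0.67 ± 0.13 without late control female 1, adjusted p = 0.0237), beside 0.133% of all genes, a call that was lost with the replicate block. For late minus peak by diet label 3 passed, all negative, beside 3.98% of all genes. These were Stat3 (-1.05 ± 0.25, adjusted p = 0.0183), Hnf4a (-0.75 ± 0.19, adjusted p = 0.0219) and Esr1 (-0.89 ± 0.24, adjusted p = 0.0287). Without late control female 1 they were -1.01 ± 0.25, -0.74 ± 0.19 and -0.82 ± 0.24, with adjusted p of 0.0249, 0.027 and 0.0385. Median-of-ratios scaling kept these 3 and gave 3 higher and 4 lower in all, and quantile normalization gave 3 and 3. The shares of all genes called under these scalings are not given here, so those counts are a description only.

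Of 18 other lipocalin genes listed 10 could be tested, and 1 was higher and 1 lower at each stage between the diet labels, against 27.1%, 16.7% and 12.8% of all genes called. The list's median difference was 0.64 at peak, 0.17 at early and 0.08 at late resolution, beside 0.05, 0.13 and 0.05 over all genes. Obp2a, an odorant-binding lipocalin, had no more than 0.218 TPM in ethanol-labelled livers, against 0.146 to 5.59 TPM in the 23 control-labelled livers, and differed by -1.81 ± 0.30 at peak. It reached the filter only through the control-labelled livers, so its call was fixed by the filter. Apom, a carrier of sphingosine phosphate on lipoproteins, was higher by 0.53 ± 0.15 at peak (adjusted p = 0.00585). The lipocalin list too was drawn up with earlier results of these data known, so that p is a description. Rbp4, the plasma carrier of retinol, had 4934.5 to 8988 TPM in ethanol-labelled and 4174 to 9092 TPM in control-labelled livers and did not pass.

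Lists of genes known for a sex bias in mouse liver were looked at beside the members. These lists were also drawn up with earlier results of these data known, so their counts are a description. Of 18 male-biased genes tested 17, 17 and 16 were lower in ethanol-labelled livers at peak, early and late resolution, and of 20 female-biased genes 20, 20 and 19 were higher. Of all 11244 genes 1103, 277 and 448 were lower and 1946, 1603 and 992 higher. The late counts were 17 lower and 19 higher without late control female 1, when 18.6% of all genes were called in either direction. Of the male-biased genes 5 had a mean under 0.5 TPM in ethanol-labelled livers, and of the female-biased genes 7 in control-labelled livers, so the calls of these were fixed by the filter. Summed over its genes, the male-biased list stood between 632 and 1635 TPM in ethanol-labelled livers, against 7965 to 38263 TPM in the 23 control-labelled livers and 815 TPM in late control female 1. The female-biased list stood between 3790 and 15550 TPM, against 62.2 to 288 TPM in those control-labelled livers and 6476 TPM in late control female 1. The part of sex in the members' diet-label differences cannot be told apart from that of diet.

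Of 9 hepatocyte markers 1 was higher and 1 lower at peak, 1 and 1 at early, and 2 and 2 at late resolution in ethanol-labelled livers, with median differences of 0.08, 0.10 and 0.02. Of all genes 27.1%, 16.7% and 12.8% were called in either direction at these stages. The 9 hepatocyte markers in the table summed to between 155621 and 220248 TPM in ethanol-labelled and to between 97599 and 175061 TPM in the 23 control-labelled livers, with 194243 TPM in late control female 1. Markers of Kupffer cells summed to 124 to 456 TPM against 93.7 to 322 TPM, of endothelial cells to 63.5 to 237 TPM against 44.3 to 173 TPM, and of stellate cells to 65.4 to 235 TPM against 29.1 to 98.9 TPM, with ethanol-labelled first. Neutrophil markers summed to 2.63 to 129 TPM against 0.848 to 64.2 TPM. T cell markers summed to 1.52 to 10.6 TPM against 0.772 to 3.65 TPM, and B cell markers to 1.66 to 37.2 TPM against 0.651 to 8.81 TPM. None of these lists had a marker at 0 in all libraries of a diet label.

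Markers of several other cell types were called higher in ethanol-labelled livers, and 0 of them lower. Of all 11244 genes 1946, 1603 and 992 were called higher at peak, early and late resolution. Small counts in these short lists are therefore not read as a change in cell makeup. Endothelial markers were higher in 5 of 5 at peak, 1 at early and 0 at late resolution, and stellate cell markers in 3, 2 and 0 of 5. Kupffer cell markers were higher in 0, 4 and 2 of 5, T cell markers in 0, 2 and 3 of 3, and B cell markers in 0, 2 and 3 of 3 tested. Cholangiocyte markers were higher in 2, 0 and 0 of 3 tested, and neutrophil and red cell markers in 0 at each stage. Median-of-ratios scaling ended the early calls of 1 endothelial, 2 Kupffer cell, 1 T cell and 1 B cell marker. Krt7 and Cd3d, markers of cholangiocytes and T cells, reached the filter only through the ethanol-labelled livers. In bulk tissue fewer cells of a type and less RNA per cell cannot be told apart, and the part of cell makeup in the members' levels was not tested.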

How the data were processed

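Total RNA of liver lysate was sequenced from stranded mRNA libraries, per the labels' protocols, and the genome build was mm10, per the submitters' processing notes. Aligner, counter and annotation: not given in the sources used here. As a single file the authors deposited 1 table of TPM values with 24972 rows, in which 26 entries with calendar-date names were left out. Depth is unknown, so no counting error is given. The members and lists were chosen with earlier results of these data known.

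Values were taken as log2(TPM + 0.5). Genes averaging 0.5 TPM or more, 11244 in number and all 7 members included, were tested with limma 3.58.1 (R 4.3.3), each of 12 groups having its own mean, a variance trend (33 residual and 3.8 prior degrees of freedom) and Benjamini-Hochberg adjustment over all genes, called at an adjusted p under 0.05. Diet contrasts average the sex labels, sex contrasts average the stages. Limma was tested on simulated data. Other genes were named by rule: list genes with the smallest p among those called, at most 6 per comparison, the 5 genes most like the members among those averaging 5 TPM or more, and sex-chromosome genes. Some genes that the rule names are not reported here. Ghr, Stat5b, Zhx2 and Rbp4 were added after their values were seen. Alternatives were pseudocounts 0.1 and 2, a filter at 5 TPM or none at all, median-of-ratios scaling, quantile normalization, a total without Mup rows, no or a robust variance trend, array weights, the replicate number as a block, and each library left out. Coding sequences and windows come from GENCODE M21, and promoters from RefSeq. Other work used scipy 1.17.1, matplotlib 3.10.9, pandas 2.3.3 and numpy 2.4.6 under Python 3.11.15.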

Additional observations from a re-analysis of the deposited data

Results flagged for a closer look

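In groups of 4 libraries, the highest or lowest library was compared with the rest by the ratio of its gap to the whole range, for the 7 members and their share of TPM. Of 72 such sets, each 1 measure in 1 group, 8 held a library beyond the 95% Dixon critical value. Chance alone gives about 1 in 20 among independent sets. These sets are not independent, since the members' TPM make up the share and the central members share sequence. The 8 are therefore given as a description. Of these 8, 4 were in peak ethanol female 1, which had 143 TPM of Mup7 against 5.99 to 15.7 TPM in the other 3, 64.6 TPM of Mup11 against 4.70 to 13.2 TPM, 45.6 TPM of Mup14 against 0.519 to 4.72 TPM, and 237 TPM of Mup20 against 92.4 to 117 TPM. Its Mup3, at 1514 TPM, stood within the range of the other 3. Peak ethanol male 4 had 14.96 TPM of Mup7, against 3.20 to 4.83 TPM in the other 3. Peak control male 1 had 4953 TPM of Mup1, against 1692 to 2029 TPM in the other 3. Peak control female 3 had 13801 TPM of Mup20, against 8191 to 8845 TPM. Peak control male 4 had 5.56% of its TPM in the 7 members, against 7.99% to 8.45%.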

How the results depend on the processing

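The diet-label differences of the members kept their sign under all 11 other settings and with each library left out. The median of the 7 at late resolution, -6.93, lay between -8.02 and -6.47 with 1 library left out. The share of TPM averaged 0.221% in ethanol-labelled and 6.64% in control-labelled libraries, and 0.360% and 9.02% when all Mup rows were counted. For the sex label in control-labelled livers 0 members were called, and 1 with pseudocount 2, median-of-ratios scaling or quantile normalization, 2 with array weights, and 0 to 1 with a library left out. That 1 was called without early control male 1 or without any of late control females 1, 2, 3 and 4 (Mup21, adjusted p between 0.000627 and 0.114 over all settings). Array weights also gave 1 call for the sex label in ethanol-labelled livers (0 to 3 with a library left out, 3 without late control female 1), 1 for late minus peak in control-labelled livers, 2 for early minus peak in ethanol-labelled livers (0 to 5 with a library left out, 5 without late control female 1, 1 without early ethanol female 1 or late control female 3), 1 for late minus peak in ethanol-labelled livers (0 to 1 with a library left out), 3 for the sex label by diet label and 1 for late minus peak by diet label (0 to 1 with a library left out, 1 without late control female 3). Array weights was also among the settings that moved the count of all genes in each of these comparisons. For the sex label in control-labelled livers that count lay between 91 and 1949 over the settings (150 in the setting reported). For the sex label by diet label it lay between 1 and 689 (15). The all-gene count under array weights alone is not given here, so the member calls it gave are a description only. The causes of the changed member calls were not tested, apart from the wider spread that late control female 1 gives. The replicate block, which kept 42 or 44 libraries, gave 0 called members in each of the 9 tested comparisons and -8.54 for the median diet-label difference at peak. It was not used because r was over 0.1 in only some pairs of same-numbered libraries. Over 21 pairs across diet labels r lay between -0.371 and 0.25, and 7 correlated best with their own number. Over 22 pairs across sex labels r lay between -0.433 and 0.527, with 6 over 0.1, and over 43 pairs across stages between -0.479 and 0.491, with 13 over 0.1.

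Counts over all genes moved by more than 1.5 times in each comparison under some settings. Called genes were 1617 to 4589 for the diet label at peak (3049 in the setting reported), 1075 to 4775 at early (1880) and 580 to 3712 at late resolution (1440). They were 91 to 1949 for the sex label in control-labelled (150) and 934 to 5174 in ethanol-labelled livers (1534). They were 45 to 1011 for early minus peak (82) and 24 to 3617 for late minus peak in control-labelled livers (76), and 1663 to 5269 (2984) and 1366 to 3843 (2475) in ethanol-labelled livers. The interactions gave 1 to 689 (15), 0 to 2171 (0) and 249 to 2400 (447). Unknown depth limits what can be said of members at a few TPM in ethanol-labelled livers.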
